A study of Mus musculus with 6 samples.

Results

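The 9 genes described here encode transcription factors that pattern the heart: the 6 mouse Iroquois homeobox genes (Irx1 to Irx6) and 3 T-box genes (Tbx2, Tbx3 and Tbx18), out of 56691 gene rows. They were picked by gene symbol and are shown in full, but the family was chosen on the differences between HMGB2 and vector libraries seen in earlier results from these same files. Their values in that comparison are therefore a description: no p-value is given for a member, and which members lie past the threshold used for all genes is listed without being read as evidence. The study measured RNA by sequencing in primary cardiomyocytes from neonatal mouse hearts. All cultures received an adenovirus (Ad5) with the cardiac troponin T (cTNT) promoter, which is active in cardiomyocytes. The control group (genotype Control, treatment Ad-cTNT vector, 3 libraries) received it without an insert, and the HMGB2 group (genotype HMGB2 overexpression, treatment Ad-cTNT-HMGB2, 3 libraries) received it with HMGB2, a chromatin protein that bends DNA. Strain, exact age, virus dose and time of collection are not given here. Nor do the labels say whether replicates are separate cultures or animals, so a p-value reflects only the variation among these libraries, which can be technical.

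Iroquois proteins are TALE-class homeodomain factors that set regional identity in the heart. Irx4 is a classic marker of ventricular myocardium, Irx3 is known from the ventricular conduction system, Irx5 shapes the gradient of repolarization across the ventricular wall, and Irx1 and Irx2 are known from the ventricular septum. Tbx2 and Tbx3 are T-box repressors that keep the atrioventricular canal and the conduction system from taking on a working-myocardium programme, and bone morphogenetic protein (BMP) signals induce Tbx2. Tbx18 marks the epicardium, mural cells and the sinus node.

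The libraries held 12498215 to 16618365 counts. Hmgb2 itself was at 36.3 to 46.8 CPM (counts divided by TMM-scaled library size, on the usual CPM scale) with the vector and at 175 to 196 CPM with HMGB2, and the source of the HMGB2 sequence in the virus is not stated. Vector 1 and HMGB2 3 stood apart from the other libraries of their groups (chi-square per degree of freedom of 14.4 to 20.2 against them, and of 2.01 and 2.75 between the remaining pairs), so counts and values without both are given where they end a call, turn a direction or move a count by over 1.5 times. Markers of other heart cells were present beside those of cardiomyocytes, and the counts of higher and lower markers come from the edgeR test described with the members. Cardiomyocyte markers summed to 11879 to 13827 CPM with the vector and 22158 to 24773 CPM with HMGB2, with 10 of 12 higher, 0 lower and none at 0. Fibroblast markers summed to 10673 to 12626 and 9113 to 10298 CPM (1 of 12 higher, 2 lower). Most of that fall lay in Fn1 (4498 ± 1301 to 3197 ± 749 CPM), whose groups overlapped and which did not pass. Within their groups, Fn1 was lowest in vector 1 (2997 CPM) and HMGB2 3 (2332 CPM). Endothelial markers summed to 4609 to 4717 and 3873 to 4052 CPM (4 of 12 lower). Smooth muscle and pericyte markers summed to 3106 to 3310 and 2671 to 2751 CPM (1 of 12 higher, 3 lower). Most of the fall in that sum lay in Des (1338 ± 74.4 to 867 ± 28.1 CPM). The 1 that rose was Cnn1 (69.3 ± 5.38 to 111 ± 5.95 CPM, edgeR adjusted p = 0.000342). Acta2, at 873 ± 56.1 and 879 ± 56.1 CPM, did not pass. Macrophage markers summed to 108 to 142 and 80.7 to 94.4 CPM (4 of 11 tested lower), and Schwann cell and neuron markers to 25.5 to 27.8 and 19.2 to 27.2 CPM (1 of 6 tested higher, 1 lower). In bulk RNA, fewer cells of a type and less RNA per cell cannot be told apart, and the part of these shifts in the results below was not tested.

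The Iroquois genes lie in clusters. On GRCm38, with positions from GENCODE M21, Irx1 (13, 71957921 to 71963723, minus strand), Irx2 (13, 72628820 to 72634198, plus strand) and Irx4 (13, 73260479 to 73269608, plus strand) share chromosome 13, with 665 kb between the start sites of Irx1 and Irx2 and 632 kb between those of Irx2 and Irx4. Irx3 (8, 91798525 to 91802067, minus strand), Irx5 (8, 92357625 to 92376286, plus strand) and Irx6 (8, 92674288 to 92680956, plus strand) share chromosome 8, with 556 kb from Irx3 to Irx5 and 317 kb from Irx5 to Irx6. Tbx2 (11, 85832551 to 85841948, plus strand) starts 54 kb from Tbx4, Tbx3 (5, 119670669 to 119684724, plus strand) starts 162 kb from Tbx5, and Tbx18 (9, 87702800 to 87731260, minus strand) lies apart from other T-box genes.

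The promoters of Irx2 and Irx4 are shown because these neighbours in a cluster differed between the groups in opposite directions. RefSeq windows on GRCm38.p6 matched 4 of the 9 members (Irx2, Irx3, Irx4 and Tbx18). The Irx3 window is not described further, since all 250 of its bases lie within an untranslated Irx3 exon by GENCODE. The sequences below are read 5′ to 3′ on the plus strand of chromosome 13, with each CG dinucleotide in capitals, from chr13:72628570-72628819 for Irx2 and from chr13:73260247-73260478 for Irx4, where the 18 bases next to the RefSeq start are left out because GENCODE annotates them as untranslated region.
Irx2: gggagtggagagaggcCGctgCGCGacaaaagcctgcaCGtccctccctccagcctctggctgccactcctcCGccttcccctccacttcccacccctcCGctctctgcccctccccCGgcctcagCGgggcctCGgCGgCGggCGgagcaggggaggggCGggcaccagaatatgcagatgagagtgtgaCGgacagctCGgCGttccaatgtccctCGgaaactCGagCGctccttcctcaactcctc
Irx4: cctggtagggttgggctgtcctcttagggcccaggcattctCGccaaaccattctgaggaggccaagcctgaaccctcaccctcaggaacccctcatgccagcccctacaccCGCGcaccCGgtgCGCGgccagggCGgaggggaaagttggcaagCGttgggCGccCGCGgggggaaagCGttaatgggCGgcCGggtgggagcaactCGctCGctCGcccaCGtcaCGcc
Both windows are rich in CG: the 250 bases before the start held 19 CG dinucleotides for Irx2 and 22 for Irx4, against a median of 6 over 32851 RefSeq windows of that length, and their GC contents of 68.4% and 68.8% compare with a median of 52.4%. The window of Tbx18, which overlaps an exon of a gene on the other strand, held 15. On both strands, none of these 3 windows held the T-box half-site GGTGTGA (found in 3.33% of all windows), the Iroquois palindrome ACANNTGT (6.31%), the NKX2-5 site TNAAGTG (10.1%), the GATA site AGATAA (9.99%) or the TATA box TATAAA (12.4%). The E-box CANNTG, which overlaps the centre of the Iroquois palindrome and is in 66.2% of all windows, was found once each for Irx2 and Tbx18. The absence of a match says only that these letters are not in these windows.

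Of the 9 genes, 8 passed the filter on low counts, with 30 to 664 counts in a library, and Irx6 did not. In the fit over all 15429 genes tested (edgeR quasi-likelihood, Benjamini-Hochberg adjusted p under 0.05), 2 of the 8 were higher with HMGB2 (Irx3 and Irx4), 2 were lower (Irx1 and Irx2) and 4 did not pass. Across all genes 25.2% passed, 14.4% higher and 10.8% lower, and nothing is read from the members' count since this contrast chose them. The same 4 members were those whose groups did not overlap, a property of 40.5% of all genes tested.

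Irx1 had the largest difference of the family. It was at 12.8, 9.93 and 11.2 CPM in vector 1, 2 and 3 and at 2.89, 2.48 and 2.97 CPM in HMGB2 1, 2 and 3. Every HMGB2 library was below every vector library, and the means of 11.3 ± 1.45 and 2.78 ± 0.26 CPM (SD, n = 3 each) correspond to a log2 fold change of -2.02 (SE 0.16), or 4.04-fold lower. Irx2, the neighbour of Irx1 on the other strand, was at 7.30, 8.03 and 8.01 CPM with the vector and at 3.43, 3.24 and 3.27 CPM with HMGB2. Again the groups did not overlap, and the spread within each was narrow (7.78 ± 0.42 and 3.31 ± 0.0991 CPM). The log2 fold change was -1.23 (SE 0.14), or 2.35-fold lower. On the log2(FPKM + 1) scale, which shrinks low values, the differences were -1.35 for Irx1 and -0.73 for Irx2.

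Irx4, the third gene of that cluster and the ventricular marker, went the other way. Its levels were 4.01, 2.34 and 4.22 CPM with the vector and 12.4, 9.86 and 12.2 CPM with HMGB2. Vector 2 was the lowest of its group and HMGB2 2 of its own, and the groups did not overlap. The means were 3.52 ± 1.03 and 11.5 ± 1.44 CPM, 3.28-fold higher with HMGB2 (log2 fold change 1.71, SE 0.21). Counts of Irx4 per count of Irx1 within a library, a ratio that library scaling does not touch, were 0.235 to 0.378 with the vector and 3.97 to 4.31 with HMGB2.

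Irx3 was at 8.82, 5.70 and 7.58 CPM with the vector and at 18.6, 20.1 and 19.8 CPM with HMGB2. The groups lay well apart (7.37 ± 1.57 and 19.5 ± 0.781 CPM, 2.65-fold higher, log2 fold change 1.41, SE 0.15). Its antisense gene Irx3os overlaps 4.49% of the Irx3 exon bases, and since the strand setting of the counting is not stated, reads there cannot be assigned to one of them. Irx3os had 4, 2 and 9 counts with the vector and 20, 13 and 28 with HMGB2 (log2 fold change 1.75, edgeR adjusted p = 0.0305), far fewer than Irx3. It lost its call without vector 2 (adjusted p = 0.107), HMGB2 1 (0.0801) or HMGB2 3 (0.093), and without vector 1 and HMGB2 3 together (0.0612).

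Irx5, the next gene of the Irx3 cluster, differed much less. It was at 12.1, 8.62 and 8.01 CPM with the vector and at 12.0, 9.9998 and 11.8 CPM with HMGB2. Vector 1 was as high as the HMGB2 libraries, so the groups overlapped (9.58 ± 2.21 and 11.3 ± 1.09 CPM, log2 fold change 0.24, SE 0.17). Without vector 1 the log2 fold change was 0.44, and without vector 1 and HMGB2 3 it was 0.41. In both settings 5 members, Irx5 among them, lay past the threshold. Irx6 had 1 count in vector 1, 1 in HMGB2 2 and 0 in the other 4 libraries. A count of 0 allows up to 3 counts, or 0.181 to 0.216 CPM in those 4, from counting error alone. The counts of Irx3 per count of Irx5 were 0.661 to 0.946 with the vector and 1.56 to 2.01 with HMGB2.

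**Figure D1:**
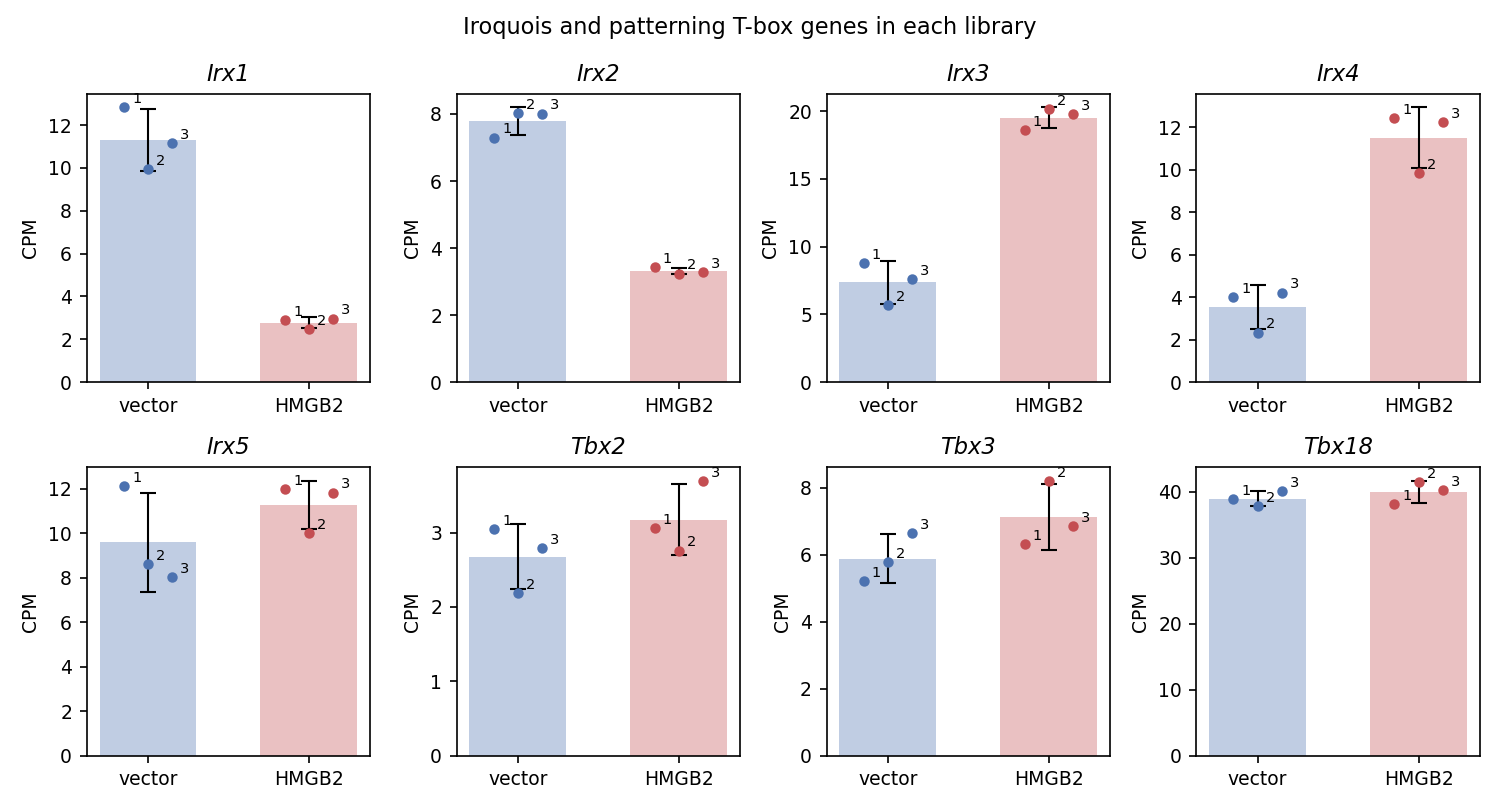
Levels in CPM (vertical axes, from 0) of the 8 tested members in vector and HMGB2 libraries. Points are libraries with their replicate number, bars are means and error bars are SD (n = 3). Irx1 and Irx2 are lower and Irx3 and Irx4 higher in every HMGB2 library, while the groups of the other 4 genes overlap.

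The patterning T-box genes were close to equal between the groups. Tbx2 was the least abundant, at 3.05, 2.19 and 2.79 CPM with the vector and 3.07, 2.76 and 3.70 CPM with HMGB2. The groups overlapped, and the log2 fold change of 0.25 (SE 0.22) was about the size of its error. Tbx3 was at 5.21, 5.77 and 6.65 CPM with the vector and 6.31, 8.21 and 6.85 CPM with HMGB2. Vector 3 lay above HMGB2 1, and the means were 5.88 ± 0.727 and 7.12 ± 0.977 CPM (log2 fold change 0.27, SE 0.16). Tbx18 was the steadiest, at 38.9, 37.8 and 40.1 CPM with the vector and 38.2, 41.5 and 40.2 CPM with HMGB2. Its means of 39.0 ± 1.15 and 40.0 ± 1.69 CPM gave a log2 fold change of 0.04 (SE 0.08). Not passing the threshold does not show that these 3 genes were the same in both groups.

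Beside Tbx18 stand the markers of the epicardium, one of its known sites. The 15 markers summed to 307 to 346 CPM with the vector and 274 to 299 CPM with HMGB2, with none at 0. Of the 14 tested, 0 rose and 3 fell, with a median log2 fold change of 0.0078. Keratin 19 (Krt19) fell by 1.39 on the log2 scale (61.4 ± 6.99 to 23.3 ± 1.83 CPM, edgeR adjusted p = 1.92e-05). Most of the fall in the sum of the 15 markers lay in Krt19. The retinoic acid enzyme gene Aldh1a2 fell by 0.79 (adjusted p = 0.00928) and the membrane glycoprotein gene Gpm6a by 0.40 (adjusted p = 0.0289). Gpm6a lost its call without vector 2 (edgeR adjusted p = 0.0789), vector 3 (0.0584), HMGB2 1 (0.102) or HMGB2 2 (0.109). Mesothelin (Msln), at 67.3 ± 4.87 and 68.1 ± 1.64 CPM, and Wt1, at 6.66 ± 0.936 and 6.19 ± 0.32 CPM, did not pass. The exons of Tbx18 share 20.6% of their bases with a gene annotated on the other strand, and 18.3% of its 50-base words occur in transcripts of other genes, so its counts are less certain than those of Irx1, Irx4 and Tbx2, where that share was 0%. The shares were 4.16% for Irx3, 1.01% for Tbx3, 0.552% for Irx5 and 0.481% for Irx2.

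Levels per gene length were compared in FPKM (fragments scaled to gene length and library size), the deposited values. With the vector the order was Tbx18 (8.18 ± 0.272 FPKM), Irx1 (4.28 ± 0.582), Irx5 (3.04 ± 0.718), Irx3 (2.65 ± 0.583), Irx2 (2.35 ± 0.113), Irx4 (1.34 ± 0.397), Tbx3 (0.883 ± 0.107), Tbx2 (0.73 ± 0.128) and Irx6 (0.00667 ± 0.0115). The library ranges of Irx1 and Irx5, Irx5 and Irx3, Irx3 and Irx2, Irx4 and Tbx3, and Tbx3 and Tbx2 overlapped, so these neighbours in the order are not told apart. With HMGB2 the order was Tbx18 (8.52 ± 0.369), Irx3 (7.10 ± 0.301), Irx4 (4.44 ± 0.572), Irx5 (3.62 ± 0.364), Tbx3 (1.08 ± 0.147), Irx1 (1.07 ± 0.104), Irx2 (1.02 ± 0.0306), Tbx2 (0.88 ± 0.137) and Irx6 (0.00667 ± 0.0115). There the ranges of Irx4 and Irx5 overlapped, and so did those of each neighbouring pair from Tbx3 to Tbx2. By mean level, Irx1 thus went from the highest Iroquois gene to beside Irx2, and Irx4 from the lowest of the 5 detected Iroquois genes to above Irx1 and Irx2. Among all tested genes, Irx1 moved from percentile 47.7 to 19.97 by mean FPKM, Irx3 from 37.0 to 59.3 and Irx4 from 25.1 to 47.2, while Tbx18 stayed at 63.5 and 64.1.

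The sum of the Iroquois genes changed less than its makeup. It was 11.8 to 15.7 FPKM with the vector and 16.2 to 18.0 FPKM with HMGB2, 13.7 ± 1.98 and 17.2 ± 0.914 on average. Irx1 and Irx2 together made up 48.9% ± 3.49 of it with the vector and 12.1% ± 0.176 with HMGB2 (SD, n = 3 each). Irx3 and Irx4 together made up 28.9% ± 3.75 and 66.9% ± 1.19. The share of Irx5 was 22.1% ± 2.98 and 21.0% ± 1.11, with overlapping libraries. The 3 T-box members summed to 9.34 to 10.19 FPKM with the vector and 9.90 to 10.8 FPKM with HMGB2, which overlap. Within the pair that was lower, Irx1 had 1.24 to 1.76 counts per count of Irx2 with the vector and 0.766 to 0.907 with HMGB2.

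**Figure D2:**
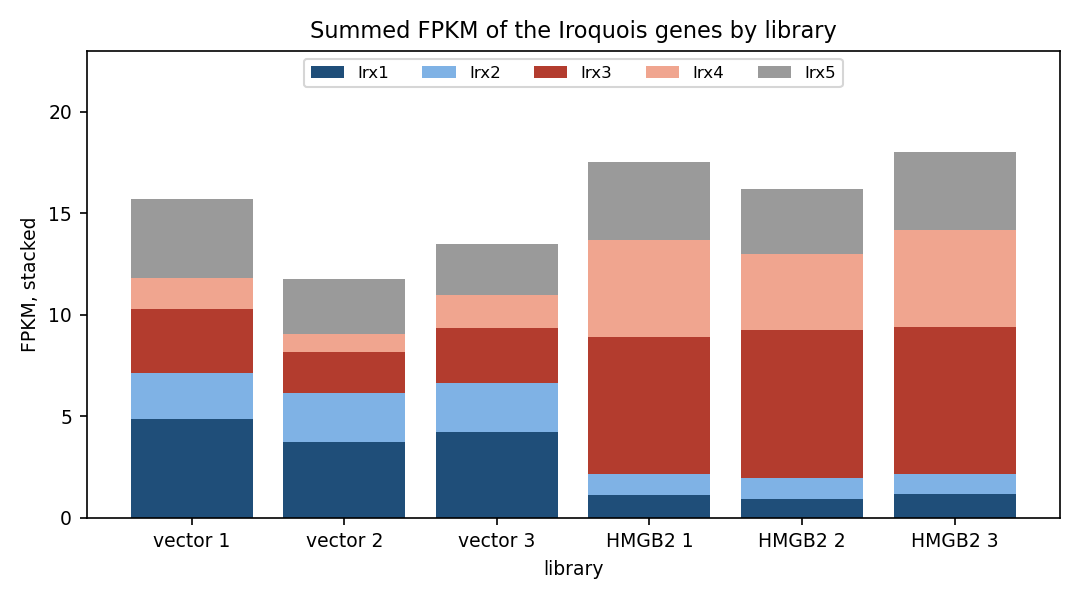
Stacked FPKM of the Iroquois genes (vertical axis) in each of the 6 libraries (horizontal axis). Irx1 and Irx2 fill 45.3% to 52.2% of the column in the vector libraries and 12.0% to 12.3% in the HMGB2 libraries, and Irx6 is too low to be drawn.

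The surroundings of the clusters were then compared, since neighbouring genes can share regulatory DNA. Within 1000 kb of a start site of Irx1, Irx2 or Irx4, 16 other genes were tested, of which 6 rose and 2 fell, with a median log2 fold change of 0.10. The only tested gene within that distance of Irx1 was the pseudogene Rpl9-ps4, at 17.9 ± 2.58 and 15.6 ± 3.38 CPM, which did not pass. The genes that changed lie on the Irx4 side. Tppp, a tubulin-binding protein gene, was 2.92-fold higher (3.38 ± 0.288 and 9.88 ± 1.86 CPM, edgeR adjusted p = 0.000303) at 748.9 kb from Irx4. Slc9a3, a sodium-proton exchanger gene at 861 kb, had 0, 2 and 1 counts with the vector and 49, 33 and 31 with HMGB2 (edgeR adjusted p = 0.000231). Around Irx3, Irx5 and Irx6, 4 of 10 tested neighbours rose and 0 fell: Irx3os, Rbl2, Fto and Rpgrip1l. Fto, known for enhancers within it that contact Irx3, had a log2 fold change of 0.27 (edgeR adjusted p = 0.0445). Its call was lost without vector 1 (0.0749), vector 2 (0.124), vector 3 (0.0537), HMGB2 1 (0.142) or HMGB2 2 (0.16), and that of Rpgrip1l (0.36, adjusted p = 0.0363) without the same libraries (0.0598 to 0.135). Over all 9 members, 15 of 71 tested neighbours rose and 7 fell, beside 14.4% and 10.8% of all genes. The 22 past the threshold became 10 without vector 2, 13 without vector 3, 14 without HMGB2 1 and 11 without HMGB2 2. Near Tbx3, the RNA helicase gene Ddx54 fell by 0.42 on the log2 scale (74.0 ± 1.92 to 55.4 ± 1.08 CPM, adjusted p = 0.00189).

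**Figure D3:**
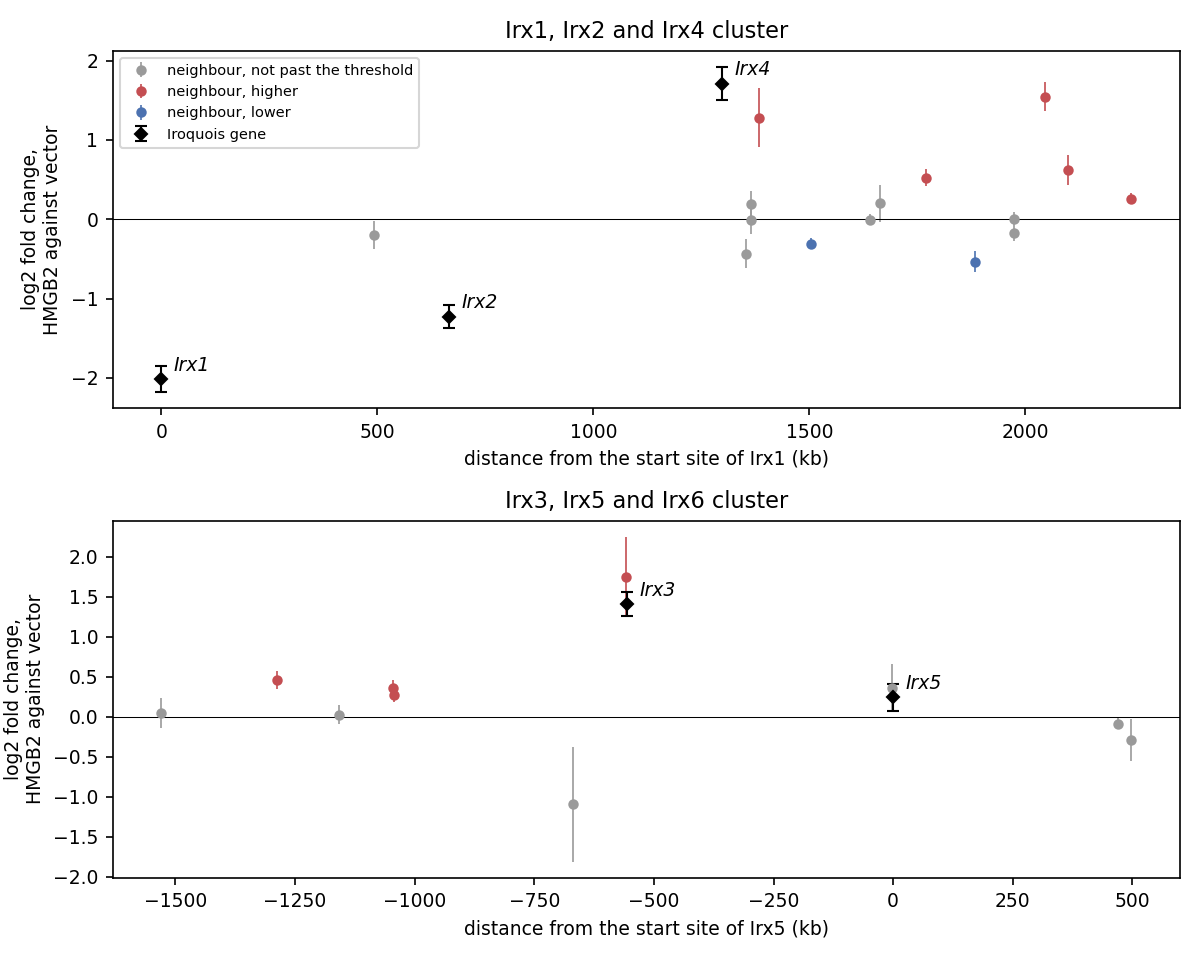
Log2 fold change between HMGB2 and vector (vertical axis, error bars SE) against the distance in kb from the start site of Irx1 (upper panel) or Irx5 (lower panel). Diamonds are Iroquois genes and circles are tested neighbours within 1000 kb of one. Irx1 and Irx2 lie below 0 and Irx4 above it in the same cluster. Slc9a3, with 3 vector counts in all, is not drawn.

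Of the other T-box genes, Tbx5, an activator that works with NKX2-5 in chamber myocardium and lies beside Tbx3, was 1.87-fold higher, at 18.6 ± 2.54 and 34.7 ± 2.29 CPM (edgeR adjusted p = 0.000429, log2 difference 0.90). Its 3 HMGB2 libraries (37.3, 33.7 and 33.1 CPM) were all above the vector libraries (16.2, 21.3 and 18.2 CPM). Tbx20, a T-box factor of chamber myocardium, was at 586 ± 56.8 and 667 ± 42.0 CPM and did not pass (adjusted p = 0.163). It passed without vector 1 and HMGB2 3 (log2 fold change 0.16). Mga, a T-box factor that pairs with MAX, was at 164 ± 37.8 and 165 ± 31.6 CPM (adjusted p = 0.988). In all, 1 of 5 tested genes of this list of 14 rose and 0 fell, with a median log2 fold change of 0.0046, and the 9 others had at most 9 counts in any library. The remaining TALE homeobox genes, relatives of the Iroquois family, held 0 of 11 tested members that rose and 3 that fell, with a median of -0.16. Pknox1 fell by 0.48 on the log2 scale (adjusted p = 0.00404), Meis1 by 0.35 (0.0355) and Tgif1 by 0.32 (0.0159). Meis1 lost its call without vector 2 (edgeR adjusted p = 0.121), vector 3 (0.0666), HMGB2 1 (0.152) or HMGB2 3 (0.0851), and Tgif1 without HMGB2 1 (0.0733). Without HMGB2 1, 1 gene of the list passed.

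Factors that act with or beside the members changed in both directions. Of 19 tested genes, 4 rose, 4 fell and 11 did not pass, with a median log2 fold change of -0.02. Nkx2-5, the cardiac homeobox gene, went up with HMGB2, at 22.6 ± 4.01 and 49.6 ± 2.39 CPM (log2 fold change 1.13, edgeR adjusted p = 0.000157). Hopx, a homeodomain-only factor, rose 1.92-fold (16.3 ± 2.95 to 31.2 ± 4.01 CPM, adjusted p = 0.00135), and Mef2c rose 1.42-fold (adjusted p = 0.0014). Hey1, a Notch-responsive repressor that helps bound the atrioventricular canal, fell by 1.21 on the log2 scale (6.92 ± 0.44 to 2.96 ± 0.54 CPM, adjusted p = 0.001). The number past the threshold was 5 without vector 2, HMGB2 1 or HMGB2 2.

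Genes that Tbx2 or Tbx3 are known to repress include chamber genes and growth regulators. Of 9 genes, 5 rose, 1 fell and 3 did not pass, with a median log2 fold change of 0.26. Nppa, the most abundant gene of the list, was among the 3 that did not pass (6801 ± 773 and 7423 ± 553 CPM, edgeR adjusted p = 0.381). Gja5, encoding connexin 40 of atria and Purkinje fibres, was 3.16-fold higher (20.02 ± 1.6 and 63.3 ± 1.54 CPM, edgeR adjusted p = 2.28e-06). Gja1, encoding connexin 43 of working myocardium, rose 1.60-fold (494 ± 8.3 to 791 ± 39.6 CPM, adjusted p = 0.000122). The inward rectifier gene Kcnj2 rose 1.36-fold (adjusted p = 0.00945). Levels of Tbx2 and Tbx3, as given above, overlapped between the groups. The cell cycle inhibitor genes of the list moved apart: Cdkn1a was among those that rose (log2 fold change 0.25) and Cdkn2a was the 1 that fell (-1.26). Both calls were lost without vector 2 (edgeR adjusted p = 0.145 and 0.117), HMGB2 1 (0.0646 and 0.113), HMGB2 2 (0.112 and 0.0712) or HMGB2 3 (0.105 and 0.0566), and that of Cdkn1a also without vector 3 (0.136). Without HMGB2 1 the count past the threshold was 3. Gja5, Gja1, Kcnj2, Bmp10 and Sema3a each sit in more than 1 list.

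Most genes in the list of electrical genes tied to Iroquois factors, which also holds the growth factor gene Bmp10, were higher. Of 10 tested genes, 7 rose and 0 fell, with a median log2 fold change of 1.08 beside -0.0022 for all genes tested. The potassium channel genes Kcnq1 (4.96 ± 0.559 to 16.0 ± 0.082 CPM) and Kcnh2 (29.5 ± 2.36 to 84.7 ± 2.34 CPM) rose 3.22- and 2.87-fold (edgeR adjusted p = 1.56e-05 and 2.81e-06). Bmp10, a growth factor of trabeculae and atria, rose 2.63-fold (27.1 ± 2.05 to 71.2 ± 6.3 CPM, adjusted p = 1.14e-05). Kcnd2, encoding the transient outward channel that Irx5 represses, was at 1.72 ± 0.725 and 2.94 ± 0.261 CPM and did not pass, and Kcnip2, its partner subunit, had at most 15 counts in a library.

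Of the pacemaker and conduction system genes, 13 of 17 tested rose and 0 fell, with a median log2 fold change of 0.86. The T-type calcium channel gene Cacna1g rose 3.97-fold (7.81 ± 1.56 to 31.1 ± 3.41 CPM, edgeR adjusted p = 2.04e-05) and the channel subunit gene Cacna2d2 4.50-fold (5.65 ± 1.56 to 25.6 ± 4.09 CPM, adjusted p = 5.18e-05). Rgs6, a brake on muscarinic signalling, rose 2.69-fold (adjusted p = 0.000103) and the potassium channel subunit gene Kcne1 2.67-fold (adjusted p = 0.000822). Of the nodal transcription factor genes in the list, Isl1 had at most 5 counts in a library, and Shox2, at 1.25 ± 0.261 and 1.74 ± 0.328 CPM, did not pass. Etv1, another transcription factor gene of the list, rose (12.1 ± 1.64 to 16.5 ± 1.26 CPM, edgeR adjusted p = 0.0289), and Id2 did not pass. Fits with a library left out are not given for Etv1.

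Both the atrial and the ventricular list held genes that rose with HMGB2. Of 12 atrial marker genes, 8 rose and 0 fell (median log2 fold change 0.85), among them Gja5, Bmp10, Dkk3 (2.59-fold, 42.4 ± 0.765 to 110 ± 5.32 CPM, edgeR adjusted p = 2.4e-06) and the acetylcholine-gated channel gene Kcnj3 (2.60-fold, adjusted p = 1.01e-05). Of 10 ventricular marker genes, 5 rose and 0 fell (median 0.39), among them the ventricular light chain gene Myl2 (1.48-fold, 605 ± 67.2 to 895 ± 79.9 CPM, adjusted p = 0.00296), the heavy chain gene Myh7 (1.53-fold, adjusted p = 0.000577) and the guidance factor gene Sema3a (1.53-fold, adjusted p = 0.00696). Whether the lists differ from each other was not tested. Beside these lists, the cardiomyocyte markers had a median log2 fold change of 0.77, and the part of that shift in the chamber, electrical and Iroquois values was not tested.

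The BMP pathway list holds ligands, receptors, Smads and inhibitors of the signal that induces Tbx2, and target genes of the signal such as Id1, Msx1 and Msx2. Of 22 tested, 2 rose, 9 fell and 11 did not pass, with a median log2 fold change of -0.21. The inhibitory Smad7 fell by 0.72 on the log2 scale (208 ± 7.36 to 126 ± 6.75 CPM, edgeR adjusted p = 0.000109) and the receptor gene Acvr1 by 0.58 (adjusted p = 0.000534). The 2 that rose were ligand genes, Bmp10 and Bmp7, the latter 2.33-fold (6.86 ± 1.61 to 16.1 ± 1.92 CPM, adjusted p = 0.000827). Other ligand genes fell: Bmp4 by 0.55 on the log2 scale (99.5 ± 8.16 to 68.0 ± 3.93 CPM, edgeR adjusted p = 0.00136). Bmp6 fell by 0.39 (178 ± 3.24 to 135 ± 3.26 CPM, 0.00207) and Bmp2 by 0.54 (0.043). How the calls of these ligand genes that fell hold with a library left out is not given here. Of the targets, Msx2 fell by 1.02 (edgeR adjusted p = 0.0118) and Msx1 by 0.59 (0.0493), while Id1 did not pass. Msx1 lost its call without vector 1 (0.11), vector 2 (0.142), HMGB2 1 (0.0856), HMGB2 2 (0.156) or HMGB2 3 (0.0875), and without vector 1 and HMGB2 3 together (0.0901). Without those 2 libraries, 17 of the list passed the threshold, 3 higher and 14 lower.

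**Figure D4:**
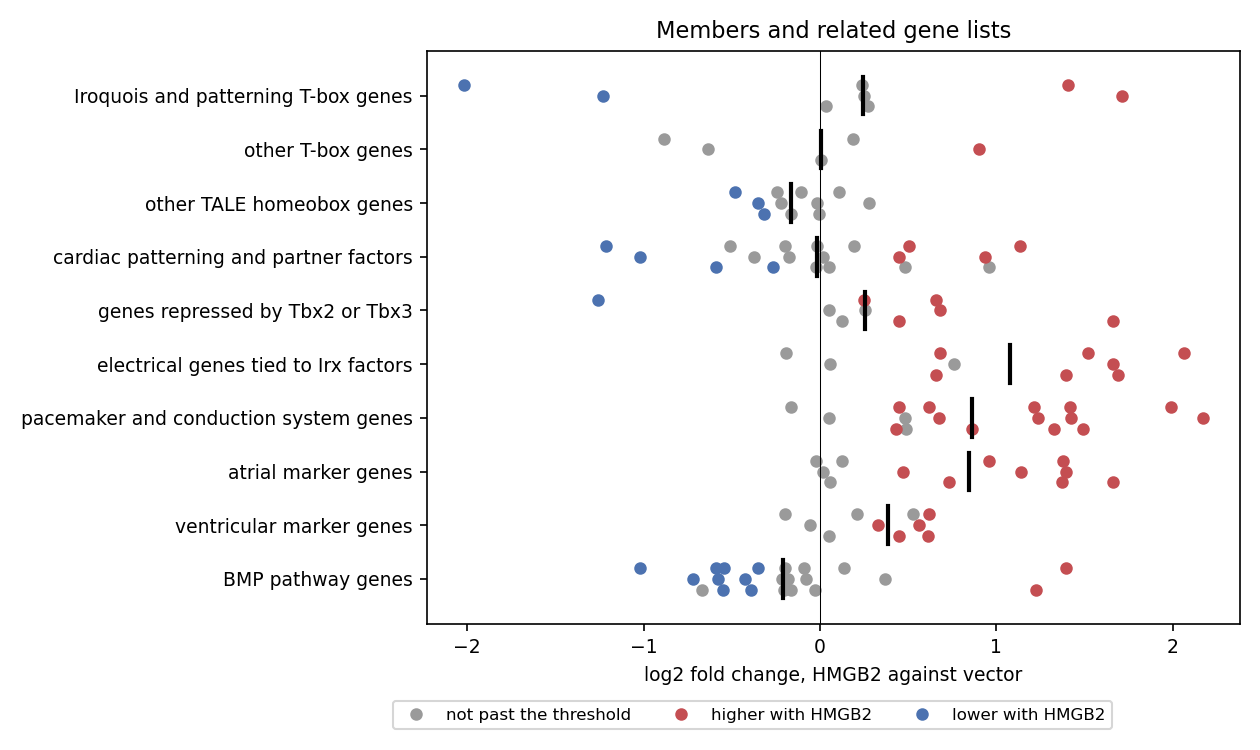
Log2 fold change between HMGB2 and vector (horizontal axis) of each tested member and of each tested gene in the 9 lists by role (rows). Circles are genes, coloured by whether they passed an edgeR adjusted p of 0.05, and black bars are medians. The members spread from -2.02 to 1.71, while the electrical and conduction lists have medians of 1.08 and 0.86. Vertical offsets within a row only separate points.

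The genes most like each member across the 6 libraries were also listed, by Pearson's r of log2 CPM over 11971 genes, as a description. For Irx1, Irx2, Irx3 and Irx4 the difference between the groups carries most of the likeness. The groups of Irx5, Tbx2, Tbx3 and Tbx18 overlapped, so their matches also reflect variation among libraries within a group. For Irx1 they included Nolc1 and Gdf15 (r = 0.998 for both), and for Irx2 Smyd5, Bcr and Ddx21 (0.999). For Irx3 they were Creld1, Fgf12 and Galnt18 (0.998 to 0.999), and for Irx4 Bdh1, Zcchc3 and Ptges (0.995 to 0.997). The best match of Irx5 was Cenpw (0.982), of Tbx2 Cox7a1 (0.991), of Tbx3 Zfp595 (0.994) and of Tbx18 Scarb1 (0.995).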

How the data were processed

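RNA of 3 vector and 3 HMGB2 libraries was extracted with TRIzol and sequenced, per the labels' protocols. Per the submitters' processing notes, mm10 was the build, and HISAT2 2.2.1, StringTie 1.3.3b, HTSeq 0.6.1 and FastQC 0.10.1 were used, in roles not stated. The authors deposited raw whole-number counts per gene and a table of FPKM values, per the file headers. Columns were matched to samples by group abbreviation (NC as control, OE as overexpression) and replicate number. Table positions were not printed: of 52073 rows found in GENCODE M21, 1472 had the same start and end.

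Counts were tested with edgeR 4.0.16 (R 4.3.3): filterByExpr (minimum count 10, total 15), TMM scaling, a robust quasi-likelihood fit with group as the only term, and Benjamini-Hochberg adjustment over 15429 genes. Standard errors were derived from the F statistic. A permutation of 3 against 3 cannot reach 0.05, so none is given. No 2 libraries agreed within sampling noise. Members and lists were chosen with earlier results of these data known. For each list and for the neighbours, the genes named are up to 4 past the threshold with the smallest p, and up to 2 of the highest level where fewer than 2 passed; other genes named, such as Cdkn1a, Cdkn2a, Msx1, Msx2, Id1, Krt19, Aldh1a2, Gpm6a, Msln, Fto, Rpgrip1l, Rbl2, Irx3os, Kcnd2, Kcnip2, Shox2 and Isl1, were picked after their values were seen. A few genes that the rule names are not reported here. On simulated counts, in a fit over 15186 genes, 62.7% of 67 genes changed 1.5-fold were recovered. So were 79.1% of 67 changed 2-fold and 100% of 66 changed 4-fold, and 11 unchanged genes were called. Far fewer genes were changed there than the 25.2% past the threshold in the data, and none had the lowest counts, so recovery can differ. Alternatives were DESeq2 1.42.0, its size factors, no count filter, limma 3.58.1 on log2(FPKM + 0.1) or log2(FPKM + 1), a replicate block, and left-out libraries.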

Additional observations from a re-analysis of the deposited data

How the results depend on the processing

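Over the 13 alternatives, Irx1 and Irx2 stayed lower and Irx3 and Irx4 higher, with log2 fold changes of -2.10 to -1.35, -1.27 to -0.73, 1.16 to 1.55 and 1.23 to 1.87. Of 520 values for 40 named genes, 501 kept direction and side of the threshold. The smallest sizes for low genes came on log2(FPKM + 1), which shrinks them by construction. Mga, near 0 throughout, changed sign with DESeq2's size factors (-0.0084) and Wald test (-0.0080) and without vector 1 and HMGB2 3 together (-0.021), and ran from -0.17 to 0.16 with 1 library left out. Without those 2 libraries together, 6251 genes passed, with 17 BMP, 2 other T-box, 10 patterning, 8 Tbx2- or Tbx3-repressed, 14 conduction (1 of them lower) and 28 neighbouring genes. With 1 library left out, 2433 to 4486 of all genes passed against 3886 (over 1.5 times fewer without vector 2, HMGB2 1 or HMGB2 2), 1 to 3 TALE, 5 to 8 patterning, 3 to 8 Tbx2- or Tbx3-repressed and 10 to 27 neighbouring genes. A replicate block gave 2213 genes in all, 1 TALE, 5 patterning and 9 neighbouring genes. Deviations from the group means correlated at r = -0.32, 0.23 and -0.37 between libraries with the same number, not over 0.1 in every pair. Between vector 1 and HMGB2 3 the correlation was 0.52. Since these 2 libraries stood apart from their groups, which can hide a pairing here, a pairing by number is neither shown nor excluded. The block is therefore shown only here. For counts that moved in these ways, the cause was not tested. At 30 to 664 counts a library, small differences in a member can be missed, and 3 libraries a group limit every comparison.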
